A study of Mus musculus with 30 samples.

Results

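AtT-20 cells are a mouse pituitary tumour line of corticotropes, the cells that make the stress hormone precursor Pomc. The earliest comparison of the study set cells given corticotropin-releasing hormone (CRH) for 1 h against untreated cells, and it asked which transcripts had moved that early. It consisted of 6 of the 30 arrays of the series, chosen by their titles. All cells had been plated 48 h before CRH and kept without fetal calf serum for 18 h, so the untreated cells were serum-deprived too, and the dose was 100 nM CRH. CRH-treated RNA carried the dye Cy3 on replicates 1 to 3 and Cy5 on replicates 4 to 6, and untreated RNA carried the other dye. The arrays of 3, 6, 12 and 24 h followed the same plan, 6 arrays each, and every time had untreated cells of its own. The 6 arrays of 1 h were hybridised with 1 pair of RNA extracts from 1 cell line, so their spread is that of labelling, hybridisation and scanning, and they count as 1 replicate. No test of CRH against untreated cells is therefore given at 1 h. A size rule stands in for it, under which the mean ratio had to reach 1.5-fold and all 6 arrays had to lie on the same side of 0.

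CRH binds the receptor CRHR1 on corticotropes, which couples to the G protein Gs, raises cyclic AMP and activates protein kinase A. The kinase phosphorylates CREB, a transcription factor that binds cyclic AMP response elements in promoters, and CRH also reaches the MAP kinases. Genes that answer within the first hour without new protein synthesis are called immediate early genes, and many of them encode transcription factors of the Fos, Jun, Egr and Nr4a families. These factors act in turn on genes such as Pomc.

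The arrays held 24192 spots of cDNA clones, of which 14375 were above the 10th percentile of both channels on all 30 arrays and were analysed. The median spot intensity of a channel at 1 h was between 949 and 1248. Pomc, Pitx1, a transcription factor of the pituitary, Cpe, a prohormone-processing enzyme, and Chgb, a granule protein, were above the 95th percentile of the empty spots in the untreated channel on all 6 arrays. They were 4 of the 8 corticotrope markers on the array, and Tbx19, Neurod1, Chga and Scg2 were not above that limit on any spot. Cpe was above it on spot 14642 but not on spots 9884 and 10736. The limit was passed by 0 of 10 fibroblast markers, 0 of 10 leukocyte markers and 0 of 1 marker of other pituitary lineages. A marker counted with any 1 of its spots above the limit, whereas the 3.19% of all spots above it is a share of spots. A count of 0 of 10 allows no statement on low levels, since the empty spots themselves reached a 95th percentile of 4623 to 8065. A bulk ratio cannot tell fewer responding cells from less RNA per cell. Across the 14375 spots, the mean ratios of both orientations had a Pearson r of -0.289, whereas arrays of the same orientation correlated at 0.336 to 0.399. After subtraction of the dye difference that the same spots showed at the later times, r was -0.213. These are descriptions across spots of shared libraries. A call needed the same sign in both orientations, while its size was asked only of the mean of all 6 arrays. Pex13, a peroxisomal membrane protein, shows the opposite case, with 0.54 to 0.72 on replicates 1 to 3 and -1.08 to -0.74 on replicates 4 to 6.

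Letters of the cyclic AMP response element were sought in the promoters of the called genes, because CREB acts at that element. The 250 bases before the transcription start are shown for Fosl2, the highest gene of the 14375 spots, for Nedd8 and Dad1, which were lower, and for Rgs4, a brake on G protein signalling that was also lower. They come from RefSeq on build GRCm38.p6 and are written 5′ to 3′ on the strand of the gene, with TGACG and CGTCA in capitals.
Fosl2, chr5:32136222-32136471, plus strand: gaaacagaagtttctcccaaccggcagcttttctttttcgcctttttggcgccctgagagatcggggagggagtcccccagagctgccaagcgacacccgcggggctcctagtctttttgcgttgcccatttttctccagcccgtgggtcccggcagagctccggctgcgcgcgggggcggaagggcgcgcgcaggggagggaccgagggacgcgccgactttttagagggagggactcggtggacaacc
Nedd8, chr14:55671881-55672130, minus strand: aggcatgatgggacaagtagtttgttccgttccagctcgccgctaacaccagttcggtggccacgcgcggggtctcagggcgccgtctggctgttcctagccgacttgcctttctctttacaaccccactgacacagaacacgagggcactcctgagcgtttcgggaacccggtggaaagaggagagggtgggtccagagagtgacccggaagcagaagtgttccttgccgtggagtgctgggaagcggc
Rgs4, chr1:169747643-169747892, minus strand: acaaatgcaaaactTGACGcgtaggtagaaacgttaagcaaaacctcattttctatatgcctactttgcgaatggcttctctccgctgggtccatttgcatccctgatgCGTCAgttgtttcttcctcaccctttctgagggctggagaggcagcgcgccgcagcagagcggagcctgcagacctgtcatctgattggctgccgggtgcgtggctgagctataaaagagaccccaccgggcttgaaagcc
Dad1, chr14:54253930-54254179, minus strand: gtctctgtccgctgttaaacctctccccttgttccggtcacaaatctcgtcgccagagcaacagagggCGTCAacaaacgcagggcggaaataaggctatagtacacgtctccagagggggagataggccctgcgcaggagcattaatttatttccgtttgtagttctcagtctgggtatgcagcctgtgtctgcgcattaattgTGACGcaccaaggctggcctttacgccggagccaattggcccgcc
TGACG is the first part of the full element TGACGTCA and CGTCA its last part, each the reverse complement of the other, so both strands were searched. Rgs4 and Dad1 held both sets of letters, and Fosl2 and Nedd8 held neither. RefSeq promoters were found for 9 of the 11 named genes that were higher and for 9 of the 12 that were lower. None of the 9 higher genes held TGACG or CGTCA, and 4 of the 9 lower genes did (44.4%), namely Cdk16, Dad1, Mkrn1 and Rgs4. Either was held by 1058 of the 3252 measured genes with a promoter (32.5%) and by 17.8% of all 32851 promoters of the table, so with sets this small the counts are given as a description. The full element was in none of these 18 promoters, in 3.72% of the measured genes and in 1.55% of all promoters.

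Crem, a relative of CREB whose inducible short form represses cyclic AMP targets, had a larger ratio at 1 h than any of the 14375 spots, on a spot outside them. Spot 2781 was under the 10th percentile in the untreated channel on 2 of the 6 arrays and in the CRH channel on none, so the intensity limit removed it. On the deposited ratios, which keep this spot, the arrays read 1.74, 1.29, 1.63, 0.94, 2.35 and 1.92, with a mean of 1.64 ± 0.49 (SD, n = 6 arrays), or 3.13-fold. Recomputed with no limit on dim spots, the mean was 1.69 ± 0.44. At 3, 6, 12 and 24 h it stood at 1.01, 0.35, 0.74 and 0.15 on the deposited ratios. Its clone is a candidate that the study chose on these arrays, and the other Crem spot, 7301, had -0.23 ± 0.53 with 4 of 6 arrays below 0. The values of these spots of the same gene thus lie far apart.

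Other genes that the limit removed were looked up after the Crem value was seen, only among spots that passed the size rule on other values of these arrays. Those named here are thus high by choice. Errfi1, an inhibitor of the EGF receptor, was too dim on 1 of the 30 arrays, none of them at 1 h. Its 1 h arrays ranged over 0.54 to 1.40 on the deposited ratios, with a mean of 0.91 ± 0.33, and its later means were between 0.01 and 0.12. Dusp14, a phosphatase of MAP kinases, was likewise dim on 1 later array, and had 0.92 ± 0.30 with no limit, from 0.36 to 1.13. Chga, a granule protein, had 0.61 ± 0.37 in the same way, with a lowest array of 0.02. On the deposited ratios, 4 higher and 5 lower spots passed the size rule among the 1252 that lay outside the 14375. With the limit set on the 1 h arrays alone, 8 of 3288 further spots were higher and 0 were lower. With no limit, 43 of 8444 further spots were higher and 30 were lower. Of the 14375 themselves, 0.104% were higher and 0.0974% were lower. Counts and lists below are over the 14375 spots unless stated otherwise.

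Fosl2, a Fos-related transcription factor, was the highest of the 14375 spots at 1 h. Its ratios on spot 18869 were 1.09, 1.20 and 1.40 on the log2 scale on the arrays where CRH-treated RNA carried Cy3 (the Cy3 arrays), and 1.38, 1.70 and 1.12 on those where it carried Cy5 (the Cy5 arrays). All 6 arrays stood above 1.5-fold, and the mean was 1.31 ± 0.23 (SD, n = 6 arrays), or 2.49-fold. It was the only one of the 14375 past 2-fold with all arrays on the same side. The second Fosl2 spot, 19524, gave 1.52, 0.87, 0.62, 0.97, 0.70 and 0.62, a mean of 0.88 ± 0.34. Both clones take the name Fosl2 from the study's own spot table, and the scanner files call them after Bcl7c and after a transcript that resembles a septin. The study's methods state that clones of selected candidates were checked by sequencing, without listing them. A spot that the scanner files name Fosl2, 23164, was too dim on at least 1 later array and had -0.25 ± 0.53 at 1 h, with 4 of 6 arrays below 0. The gene lies on chromosome 5, from 32136472 to 32157840.

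In all, 15 spots were higher (0.104% of 14375) and 14 were lower (0.0974%). Of the 15, 12 spots carried a symbol and stood for 11 genes, and 5 of these spots were named by the study's table, which was selected on these arrays. The 3 without a symbol were expressed sequence tags with means of 0.84, 0.73 and 0.68. The spots just inside the rule were Plagl2 and 2310057M21Rik, at 0.59 each, and just outside it lay Csrnp1 at 0.57.

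**Figure D1:**
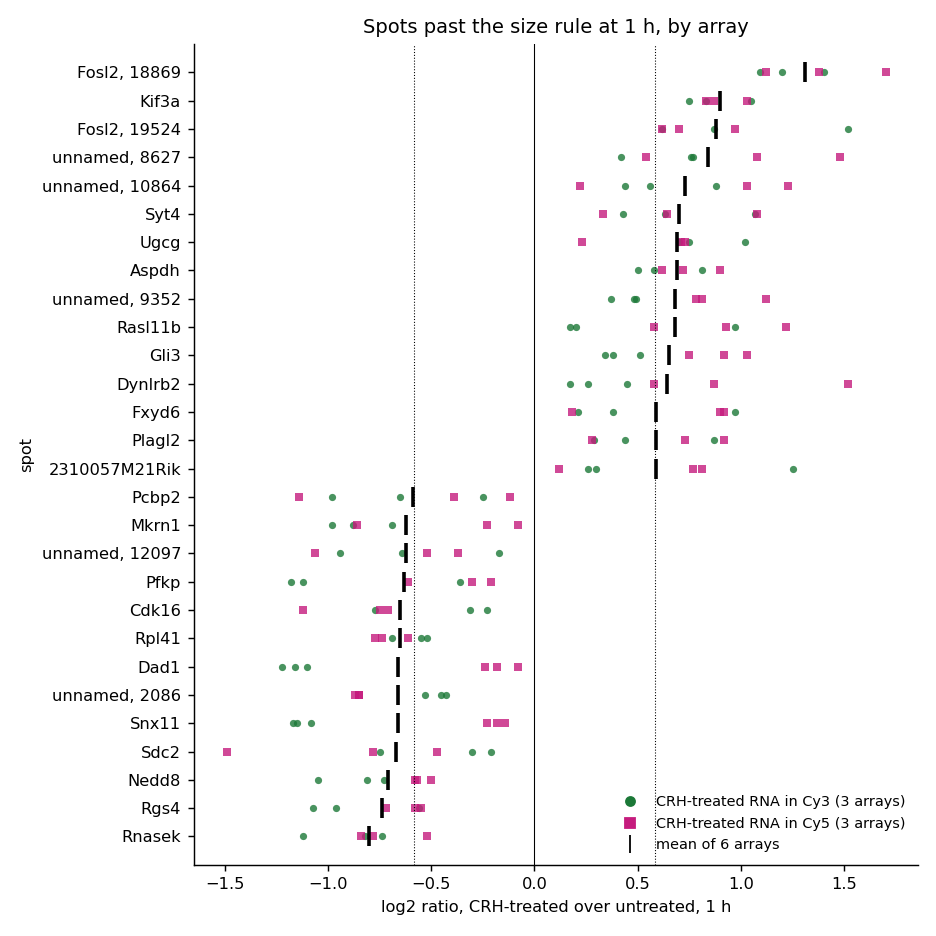
Log2 ratio of CRH over untreated at 1 h (x axis) of 28 of the 29 spots past the size rule (y axis), with circles for the 3 Cy3 arrays, squares for the 3 Cy5 arrays, black ticks for the mean of 6 arrays and dotted lines at 1.5-fold. Fosl2 on spot 18869 stands apart at 1.31, and Dad1 and Snx11 lie low mainly on the Cy3 arrays.

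The genes next to Fosl2 encode a motor, a vesicle protein and enzymes. Kif3a, the motor subunit of a kinesin that works in cilia and along axons, had a lowest array of 0.75, a median of 0.85 and a highest of 1.05 on spot 12686. The 3 Cy3 arrays averaged 0.88 and the 3 Cy5 arrays 0.91, so that the dyes gave the same reading. Its other spot was at -0.20, and Kif3b, the usual motor partner of Kif3a, had 0.02 and -0.06 on its spots. Syt4, a synaptotagmin of secretory vesicles, had a lowest array of 0.33, a median of 0.63 and a highest of 1.08 on spot 15969, with a mean of 0.70 ± 0.32. Its other spots were at 0.43 and 0.02, the first above 0 on 5 of 6 arrays. Aspdh, which is annotated as an aspartate dehydrogenase, ranged over 0.50 to 0.90 with a mean of 0.69 ± 0.15, among the narrowest spreads of the higher spots. Ugcg, the enzyme that makes glucosylceramide, had 0.69 ± 0.25 and a lowest array of 0.23. The means of its other spots were 0.03 and -0.03.

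Transcription factors and a small GTPase followed at lower size. Gli3, a factor of the Hedgehog pathway, had 0.65 ± 0.29, from 0.34 to 1.03, with every Cy5 array above every Cy3 array. Plagl2, a zinc finger factor, was at 0.59 ± 0.29. Rasl11b, a small GTPase of the Ras family, had 0.68 ± 0.43 on spot 2904, and its other spot was at 0.44 ± 0.42 with 5 of 6 arrays above 0. Dynlrb2, a light chain of dynein, averaged 0.30 in the Cy3 orientation and 0.99 in the Cy5 orientation, so its mean of 0.64 ± 0.50 rests mostly on the latter. The other Dynlrb2 spot was at 0.04. Fxyd6, a regulator of the sodium pump, had 0.59 ± 0.37. Of the 15 higher spots, 7 were past 1.5-fold in each orientation on its own.

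Among the 14 lower spots, 12 carried the symbols of 12 genes, 1 of them named by the study's table. Rnasek, a small membrane ribonuclease, was the lowest. Its arrays read -1.12, -0.74, -0.82, -0.84, -0.78 and -0.52, a mean of -0.80 ± 0.19, while its other spots had -0.21 and 0.10. Rgs4, which speeds the shutdown of G protein signals, had a lowest array of -1.07, a median of -0.65 and a highest of -0.55, with a mean of -0.74 ± 0.22. It was measured by 1 spot, on which no array came near 0. Nedd8, a ubiquitin-like modifier, ranged from -1.05 to -0.50 with a mean of -0.71 ± 0.20, and its other spot was at 0.14.

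The other lower genes have varied roles. Rpl41, the smallest protein of the large ribosomal subunit, had -0.52, -0.55, -0.69, -0.77, -0.61 and -0.74. Its SD of 0.10 was the smallest among the 29 called spots, around a mean of -0.65. Pfkp, the platelet form of phosphofructokinase, averaged -0.63 ± 0.42 and Pcbp2, a poly(C) binding protein, -0.59 ± 0.41. The other spots of both genes lay between -0.15 and -0.04. Mkrn1, a ubiquitin ligase, averaged -0.62 ± 0.38, Cdk16, a cyclin-dependent kinase, -0.65 ± 0.33, and Sdc2, a cell surface proteoglycan, -0.67 ± 0.46. Other spots were at 0.04 and -0.09 for Mkrn1, at -0.07 for Cdk16, and at -0.16 and 0.15 for Sdc2.

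Dad1, a subunit of the complex that attaches sugars to new proteins, and Snx11, a sorting nexin, were low mainly in 1 orientation. Dad1 averaged -1.16 on the Cy3 arrays and -0.17 on the Cy5 arrays on spot 18930. Snx11 averaged -1.13 and -0.18. All 6 arrays were below 0 for both genes, and the second Dad1 spot had -0.63 and -0.24. Of the 14 lower spots, 3 were past 1.5-fold in each orientation on its own.

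**Figure D2:**
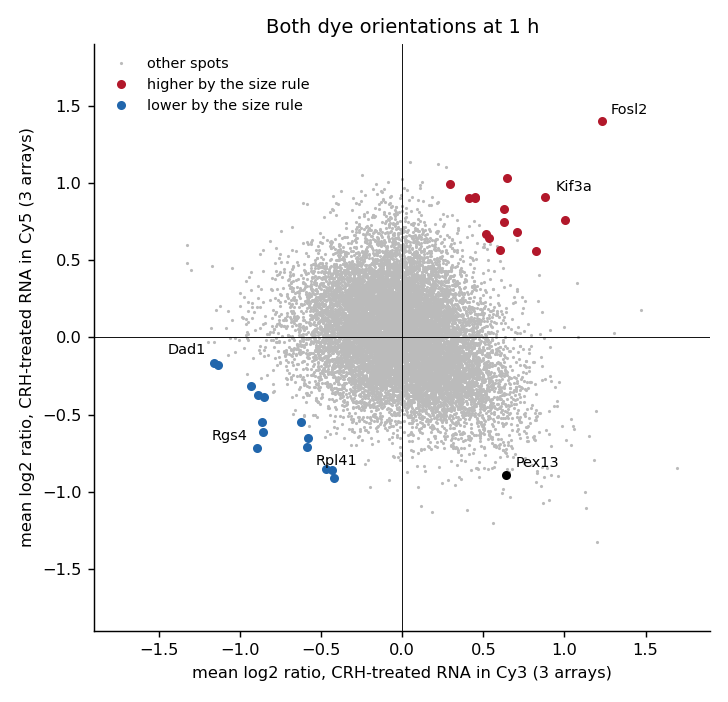
Mean log2 ratio of CRH over untreated at 1 h on the 3 Cy3 arrays (x axis) and on the 3 Cy5 arrays (y axis) for 14375 spots (grey), with the 15 higher spots in red, the 14 lower in blue and Pex13 in black. The grey cloud tilts downwards, with r = -0.289, and the called spots lie off it in the corners where both orientations have the same sign.

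Of the 29 called spots, 9 passed the size rule under each of 19 other ways of processing the arrays or of leaving 1 of them out. Such alternatives are given in the closing section. The spots were the Fosl2 spot 18869, Kif3a, Syt4, Aspdh and 1 unnamed tag on the higher side and Rnasek, Rgs4, Nedd8 and Rpl41 on the lower side. Some of the 19 were looser than the main rule or filter, and all 29 spots passed them. These were no sign rule, the same sign asked of each orientation mean, and the filter on the 1 h arrays only. Stricter rules were not among the 19. At 2-fold only the Fosl2 spot 18869 remained, and limma over the arrays of 1 h, which measures technical spread, called all of these spots but Syt4. For a second reading of the same transcript, 14 genes with a called spot had other measured spots. In 8 of the 14 every other spot lay on the same side, and in 4, namely Fosl2, Syt4, Rasl11b and Dad1, another spot was past a log2 ratio of 0.29 on that side. Over all 3066 pairs of spots of the same gene, Pearson's r was 0.126 and 53.5% had the same sign. Spots of the same gene name thus shared little of their ratio.

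Most classical early genes could hardly be read on these arrays. Fos, Fosb, Jun, Junb and Egr1 had spots, none of which passed the intensity limit on the 6 arrays, and Nr4a2 and Crhr1 had no spot under that symbol. Nr4a1, an orphan nuclear receptor, passed the limit on the 6 arrays of 1 h but not on all 30, and had 0.02 ± 0.59, with 3 of 6 arrays above 0. Sik1, a kinase induced by cyclic AMP in many cells, likewise had 0.19 ± 0.43 with 4 of 6 above 0. Among the factors that could be measured, Csrnp1, an early gene also known as Axud1, had a lowest array of 0.18, a median of 0.61 and a highest of 0.94. Its mean of 0.57 ± 0.30 missed the size rule narrowly. Id2, an inhibitor of helix-loop-helix factors, singled out after its values were seen, had 0.50 ± 0.27 with 6 of 6 arrays above 0 on one spot and 0.45 ± 0.47 with 5 of 6 on the other. Egr3, chosen in the same way, had 0.35 ± 0.34 with 4 of 6.

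The list of immediate early transcription factors had 18 measured spots of 13 genes. Of these, 2 spots were higher by the size rule, both Fosl2, and 0 were lower. Its median ratio was 0.11 beside 0.00 over all spots, with 13 spots above 0, and the array medians ran from -0.02 to 0.52. On the deposited ratios the median was 0.28. The Cy3 arrays gave a median of 0.01 and the Cy5 arrays one of 0.23. Spots higher on all 6 arrays at any size were 4 of 18, which is 22.2% beside 2.94% of all spots. They were both Fosl2 spots, Csrnp1 and Id2, and Fosl2 was a candidate that the study picked on these arrays.

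Target genes of cyclic AMP and CREB had 29 measured spots of 19 genes. By the size rule 1 was higher, Syt4, and 0 were lower, where 0.104% and 0.0974% of all spots were, and the median was 0.02. With no limit on dim spots, 3 were higher by that rule. At any size, 2 spots were higher on all 6 arrays (6.9%), Mat2a and Syt4, beside 2.94% of all spots. Spots lower on all 6 arrays were 4 (13.8%), of Ldha, Pcna and Rgs2, beside 3.4% of all spots. Pde4b, a phosphodiesterase that degrades cyclic AMP, had 0.40 ± 0.45 and 0.25 ± 0.37 on its spots, each with 5 of 6 arrays above 0. Per1, a clock gene, had -0.10 ± 0.54, with all Cy3 arrays below 0. Rgs2, a relative of Rgs4, had -0.37 ± 0.11 with 6 of 6 arrays below 0 on spot 9567 and -0.02 ± 0.15 on spot 451. It had 0.49 ± 0.33 on a spot that passed the intensity limit on the 1 h arrays but not on all 30. These spots of the same gene thus did not share a side.

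Components of cyclic AMP and G protein signalling, 66 spots of 42 genes, had a median of -0.02, with Rgs4 the only called spot. Of the other early genes outside transcription, 0 of 19 spots were called in either direction. The same held for 16 spots of MAP kinase feedback genes, where Dusp1, a phosphatase that switches MAP kinases off, had 0.40 ± 0.48 with 1 array at 1.33. With no limit on dim spots, 2 members of that list were higher, Errfi1 and Dusp14. Pomc itself had -0.16 ± 0.24, with 2 of 6 arrays above 0. In the corticotrope and secretory granule list, 1 of 26 spots was called, the Syt4 spot counted above, and the median was 0.03. By the size rule 0.104% of all spots were higher and 0.0974% were lower. A list of such a length without a call, here or below, thus says little about its members. Tbx19, the factor that drives Pomc, had -0.43 ± 0.63, with the Cy3 arrays at -1.25 to -0.78 and the Cy5 arrays at 0.02 to 0.33.

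Cytosolic ribosomal proteins, 86 spots of 65 genes, had a median ratio of -0.17 beside 0.00 over all spots, with 68 spots below 0 and the 6 array medians between -0.19 and -0.05. Only Rpl41 passed the size rule, and 15 spots (17.4%) were below 0 on all 6 arrays, beside 3.4% of all spots. Rps3, a protein of the small subunit, had -0.52 ± 0.51 with 5 of 6 arrays below 0. The list's median at the later times was 0.10, and 0.19 at 3 h. Its spots were bright, with a median log2 intensity of 12.6 beside 10.7 over all spots, and ribosomal protein genes have many processed copies whose transcripts a cDNA spot may also bind. The part of intensity in this shift was not tested.

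Oxidative phosphorylation, 72 spots, had a median of -0.14, -0.18 on the Cy3 and -0.09 on the Cy5 arrays, with 53 spots below 0 and array medians between -0.18 and -0.09, and no member was called. Ndufb8, a subunit of complex I, had -0.46 ± 0.40 with 4 of 6 arrays below 0, and Ndufa9, another, -0.43 ± 0.33 with 6 of 6 on spot 9713. Cholesterol synthesis had a median of -0.14 over 24 spots, -0.14 on the Cy3 and -0.03 on the Cy5 arrays and -0.07 with median centring. The largest member was Cyp51 at -0.49 ± 0.75 on spot 8192, where the Cy3 arrays stood at -1.32 to -0.88 and the Cy5 arrays at 0.02 to 0.38. Another Cyp51 spot was below 0 on all 6 arrays. Glycolysis and hypoxia had -0.11 over 33 spots, -0.17 on the Cy3 and -0.02 on the Cy5 arrays, with Pfkp called lower and Aldoc, an aldolase, at 0.50 ± 0.29 on spot 10089, while its other spots had -0.06 and -0.03. Housekeeping genes had -0.25 over 27 spots of 15 genes, and none was called. Their Cy3 median was -0.27 and their Cy5 median -0.11. Below 0 on all 6 arrays were 6 of these 27 spots (22.2%), beside 3.4% of all spots. Housekeeping spots were bright too, with a median log2 intensity of 12.3 beside 10.7 over all spots. Eef1a1, a translation elongation factor, differed most between the dyes in that list, with -1.44 to -1.16 in the Cy3 orientation and 0.31 to 0.57 in the Cy5 orientation on spot 18507.

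**Figure D3:**
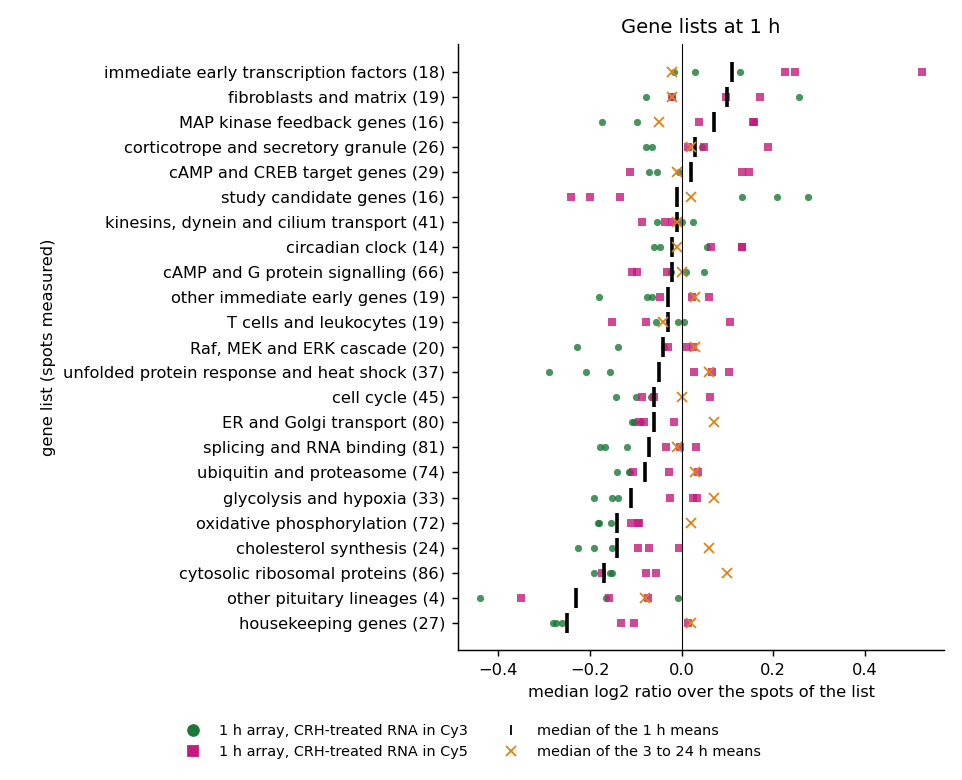
Median log2 ratio of CRH over untreated (x axis) over the spots of each of 23 gene lists (y axis, with spots measured), with circles and squares for each 1 h array by dye, black ticks for the median of the 1 h means and crosses for the median of the 3 to 24 h means. Ribosomal proteins, oxidative phosphorylation and cholesterol synthesis have all 6 arrays below 0 at 1 h and crosses at or above 0.

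ER and Golgi transport, 80 spots of 51 genes, had a median of -0.06 and no called member, with 57 spots below 0 and all 6 array medians below 0. Ubiquitin and proteasome genes had -0.08 over 74 spots and splicing genes -0.07 over 81, again without a called member. Lists for other cell types gave no called member. Fibroblast and matrix genes had a median of 0.10 over 19 spots, with Col1a2, a fibrillar collagen, at 0.51 ± 0.31 on one spot and -0.29 ± 0.49 on the other, and leukocyte genes had -0.03 over 19. Other pituitary lineages had 4 spots with a median of -0.23, below 0 on every array, and among them S100b had -0.36 ± 0.39 and Sox2 -0.35 ± 0.16, the latter with 6 of 6 arrays below 0. No defining marker of these lists cleared the background of the empty spots. Motor and cilium genes had -0.01 over 41 spots, and Kif3a was their only called member.

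Most calls of 1 h were not calls at a later time. Of the 15 higher spots, 3 were also higher at 3 h (20% of the 15, and 13% of the 23 spots higher at 3 h), namely Syt4, Aspdh and an unnamed tag. At 12 h it was 1, Syt4, of 17 higher spots, and at 6 and 24 h none of 5 and 14. By the same rule, 0.16% of all spots were higher at 3 h and 0.118% at 12 h, beside 0.0348% at 6 h and 0.0974% at 24 h. Fosl2 stood at 0.51, 0.48, 0.55 and 0.22 at 3, 6, 12 and 24 h on spot 18869, above 0 on 6, 6, 6 and 5 of 6 arrays, but below 1.5-fold. Kif3a stood at 0.31, 0.32, 0.37 and 0.03 at these times. Ugcg, at -0.07, 0.01, 0.16 and 0.28, and Gli3, at -0.10, 0.15, -0.08 and -0.18, were near 0 from 3 h on.

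None of the 14 lower spots was lower by the size rule at any later time, where 0.0209% of all spots passed at 3 h and again at 12 h, 0.0487% did at 24 h and 0% did at 6 h. Rpl41 was instead higher at 3 h. It went from -0.65 at 1 h to 0.68 ± 0.25 at 3 h, with no overlap between the 6 arrays of either time, and then had 0.04, 0.22 and 0.44. Nedd8 went from -0.71 to 0.45 ± 0.40 and Rnasek from -0.80 to 0.36 ± 0.20 at 3 h, each with all arrays of both times on opposite sides. The share of all spots with arrays on opposite sides at both times was not counted. Rgs4 was the exception. It stayed below 0 on 24 of 24 later arrays, with means of -0.32, -0.28, -0.55 and -0.46. Across all spots, the means of 1 h correlated with those of 3, 6, 12 and 24 h at r = -0.306, -0.064, -0.130 and -0.116, as a description with no test.

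**Figure D4:**
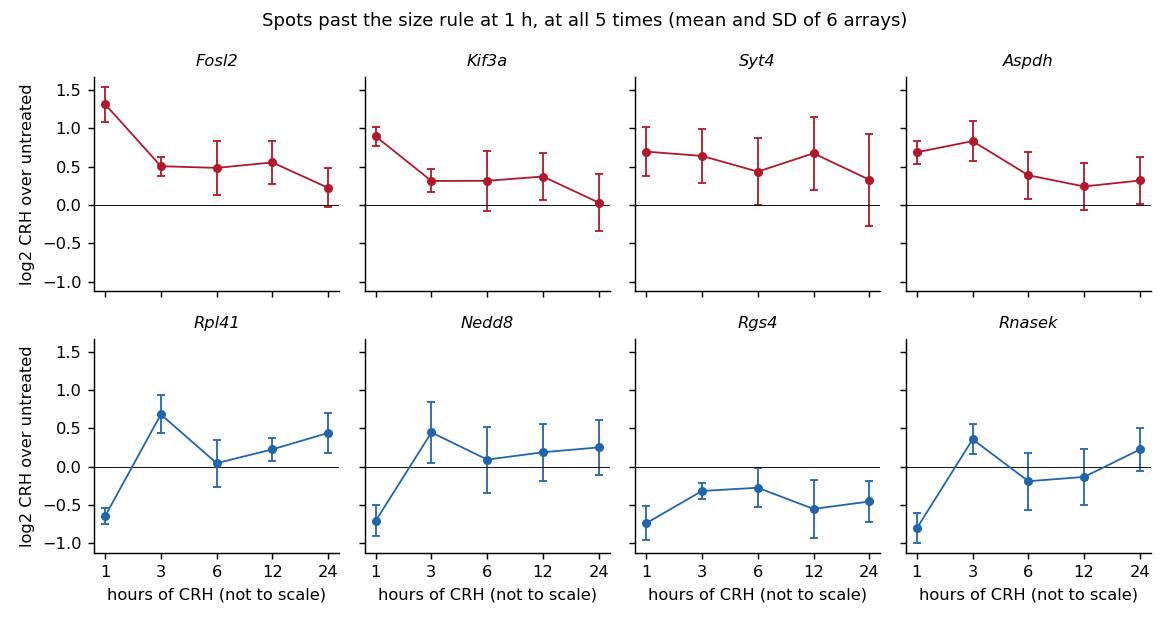
Mean log2 ratio of CRH over untreated (y axis) by hours of CRH (x axis, evenly spaced) for the 8 named spots that passed the size rule under each of 19 alternatives, with bars for the SD of 6 arrays. Fosl2 and Kif3a are highest at 1 h, Syt4 and Aspdh are about as high at 3 h, Rgs4 stays below 0, and Rnasek, Nedd8 and Rpl41 lie above 0 at 3 h.

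Whether 1 h differed from the later times was tested with limma on the 5 time averages, as the 1 h value minus the mean of the other 4. At an adjusted p of 0.05, 47 spots were higher at 1 h (0.327%) and 35 were lower (0.243%). The 1 h arrays were quantified on a day of their own, so that day and time cannot be told apart. Each call rests on 1 value at 1 h, which is assumed to vary like the later ones. The spread has 3 residual degrees of freedom for each spot and 15.39 prior ones that limma shares over all spots. The standard errors thus do not measure the spread of the 1 h arrays. The calls leaned on the 3 h values, since 0 spots passed without them, with 1028 higher and 966 lower at an unadjusted p of 0.05. Median centring left 5 and 4, scaling each array to the same spread left 5 and 5, and omission of any 1 h replicate gave 83 to 137 higher and 66 to 115 lower spots. Of the 29 spots past the size rule, 6 higher and 7 lower ones also passed this test, and none passed with the opposite sign.

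Fosl2, Neurod1 and Spg21 were the named genes with the lowest p among those higher at 1 h. Fosl2 on spot 18869 exceeded its later mean of 0.44 by 0.87 (standard error 0.15, adjusted p = 0.0233 by limma), and its other spot, at a difference of 0.57, did not pass (adjusted p = 0.0723). Neurod1, a basic helix-loop-helix factor of corticotropes, stood at 0.27 at 1 h and -0.73 to -0.47 later, a difference of 0.83 (standard error 0.14, adjusted p = 0.0233). At 1 h its Cy3 arrays read 0.74 to 1.21 and its Cy5 arrays -0.57 to -0.26, so the positive mean comes from 1 orientation. These are values of spot 3014, and the other measured Neurod1 spot, 6620, was not among the 47. Spg21, a protein that binds the T-cell co-receptor CD4, had 0.71 ± 0.60 at 1 h and a later mean of -0.23. Csrnp1 passed with a difference of 0.63 (adjusted p = 0.0484). Dynlrb2, Ccdc186, Lrg1, Fxyd6, Atg4b and Gli3 passed as well on 1 spot each, with differences of 0.70 to 0.77, and Kif3a, at 0.64, narrowly did not (adjusted p = 0.0542). Of the 47 spots, 46 had a later mean below 0 and 37 were above 0 at 1 h in both orientations.

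Dad1 had the largest difference among the lower genes. It fell by 1.01 relative to the later mean on spot 18930 (standard error 0.16, adjusted p = 0.0174) and by 0.78 on its other spot (adjusted p = 0.0393). Of the ER and Golgi list, 4 of 80 spots of 3 genes passed, where 0.243% of all spots did. They were Ssr4, a subunit of the translocon-associated complex, at -0.51 ± 0.42, Surf4, a cargo receptor, at -0.51 ± 0.37, and Copz1, a subunit of the COPI coat, at -0.59 ± 0.68 and -0.41 ± 0.47. Canx, a chaperone of the ER, had -0.56 ± 0.71 on spot 20656 and also passed (adjusted p = 0.0243), while its other spots were at 0.04 and -0.14. Canx averaged -1.18 on the Cy3 arrays and 0.06 on the Cy5 arrays. Copz1 averaged -1.16 and -0.78 on the Cy3 arrays of its spots and -0.03 on the Cy5 arrays of both. Surf4 was below 0 on all 6 arrays on that spot and at -0.15 on its other.

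Nedd8 fell by 0.95 relative to the later times (standard error 0.15, adjusted p = 0.0174), Snx11 by 0.98, Rpl41 by 0.99 and Rnasek by 0.87. Eno3, the muscle enolase, had a narrow spread at 1 h, from -0.53 to -0.25 with a mean of -0.41 ± 0.11, and stood at 0.31 to 0.48 later (adjusted p = 0.0233). Fasn, the fatty acid synthase, was as narrow at -0.44 ± 0.11, with 0.21 to 0.29 later (adjusted p = 0.0348), while its other spot had -0.17 ± 0.45. Fasn was singled out after its values were seen. All 35 lower spots had a later mean above 0, and 31 were below 0 at 1 h in both orientations.

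**Figure D5:**
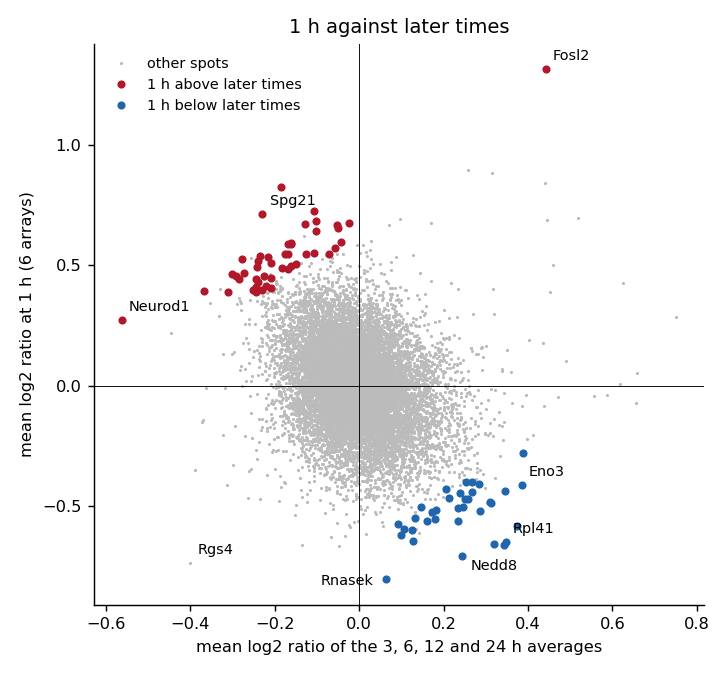
Mean log2 ratio of CRH over untreated at 1 h (y axis, 6 arrays) against the mean of the 3, 6, 12 and 24 h averages (x axis) for 14375 spots, with the 47 spots higher at 1 h by limma in red and the 35 lower in blue. Fosl2 lies above 0 and Rgs4 below 0 on both axes, while the other marked spots lie on opposite sides of 0 at 1 h and later.

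The 11 candidate genes of the study, which were selected on these arrays for differences over time, had 16 measured spots, so their counts are no independent evidence. At 1 h, 2 of the 16 were past the size rule, both Fosl2, and the median was -0.01. Acsl4, which activates long-chain fatty acids, had 0.28 ± 0.31 with 5 of 6 arrays above 0. Mat2a, which makes S-adenosylmethionine, had 0.22 ± 0.15 with 6 of 6 on spot 2363, and 0.03 and 0.04 on its other spots. Hmgcs1, of cholesterol synthesis, had -0.10 ± 0.19 and -0.05 ± 0.39 on its spots. The candidate spot of Crem was not among them, and the 16 hold its other spot, at -0.23 ± 0.53. Malat1, a nuclear non-coding RNA, had -0.15 ± 0.22 on spot 7181 and 0.04 ± 0.59 on the other. Nf2 at -0.17 ± 0.54 and Cd3e at -0.17 ± 0.27 were, like Pex13 and Loxl3, above 0 on all 3 Cy3 arrays and below 0 on all 3 Cy5 arrays. Pebp1, which binds Raf, passed the test against the later times with a difference of -0.73 (standard error 0.16, adjusted p = 0.0441).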

How the data were processed

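CRH-treated and untreated RNA of AtT-20 cells was amplified, labelled and co-hybridised to spotted cDNA arrays by the authors, 6 arrays for each of 5 times. The deposited scanner files hold spot intensities of both channels, which the authors quantified without background subtraction. The deposited table holds log2 ratios that the authors normalised by loess in each print-tip block. The columns of the second channel, listed under the unit other, are deposited intensities too.

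Ratios were recomputed from the intensities with limma 3.58.1 in R 4.3.3. No background was subtracted, and spots above the 10th percentile of both channels on all 30 arrays were kept, which leaves out transcripts dim at any time, also those dim only in untreated cells. For such spots the deposited ratios or ratios with no limit are given. Loess was fitted in each of 48 print-tip blocks, with a span of 0.75, and every ratio was turned to CRH over untreated. The result correlated with the deposited ratios at 0.99 to 0.992, so the deposited direction was the same. Dyes were taken from the labels.

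The size rule needed a mean of 1.5-fold and all 6 arrays on the same side of 0. For the test, the 6 arrays of each time were averaged and limma compared 1 h with the mean of the 4 other times, with Benjamini-Hochberg adjustment over 14375 spots. Symbols came from the study's spot table for 94 measured spots, from the full gene name for 685 and from the clone name for 4415, and 9181 had none. Named genes were up to 12 called spots in each direction, up to 8 in each direction with the lowest p against later times, the 2 largest of each of 23 lists, the study's candidates and chosen early genes. A called gene is not reported here by name. Members and lists were chosen with earlier results of these data known. Alternatives covered background, dim spots, normalisation, the call rule, the deposited ratios and the omission of single arrays or times. Scripts were tested on simulated data.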

Additional observations from a re-analysis of the deposited data

Results flagged for a closer look

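Genes whose ratio at 1 h differed from the mean of the later times by limma, and whose spots are named above, are listed here with that difference on the log2 scale. Higher at 1 h were Spg21 by 0.94, Fosl2 by 0.87, Neurod1 by 0.83, Ccdc186 by 0.77, Atg4b by 0.76, Fxyd6, Lrg1 and Dynlrb2 by 0.75 each, Gli3 by 0.70 and Csrnp1 by 0.63. Lower at 1 h were Dad1 with -1.01, Rpl41 with -0.99, Snx11 with -0.98, Nedd8 with -0.95, Rnasek with -0.87, Canx and Eno3 with -0.80 each and Cdk16 with -0.77. Surf4 with -0.75, Ssr4 with -0.74, Pebp1 with -0.73, Mkrn1 with -0.72, Copz1 with -0.70 and -0.69 on its spots and Fasn with -0.68 were lower as well. Each rests on 1 averaged value at 1 h, and none passed without the 3 h arrays. The day of quantification goes with the 1 h time and cannot be told apart from it.

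For 10 of these genes, all 6 arrays of a later time lay on the side opposite to all 6 arrays of 1 h, a difference that was not tested for single times. The share of all spots with this pattern was not counted. These genes had been picked by a test that used the same later values, so the pattern is no separate result about them. At 3 h this held for Rpl41 at 0.68, Dad1 at 0.49, Nedd8 at 0.45, Eno3 at 0.41, Pebp1 at 0.39, Snx11 at 0.37, Rnasek at 0.36 and Mkrn1 at 0.16. At 6 h it held for Lrg1 at -0.22. At 12 h it held for Dad1 and Eno3 at 0.48 each, Snx11 at 0.30 and Rpl41 at 0.22, and at 24 h for Snx11 at 0.49, Rpl41 at 0.44, Surf4 at 0.36 and Eno3 at 0.33.

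The lowest 1 h array of Pebp1, at -0.66, stood apart from its other arrays by Dixon's criterion, which chance meets in about 1 in 20 groups.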

How the results depend on the processing

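The 6 arrays hold 1 pair of extracts, 1 h was quantified on its own day, and dim transcripts, classical early genes among them, could not be read, so counts depend on the filters. Of 1220 values of the 85 named spots, 1205 moved by less than 1 SD and 15 moved further when the 10th percentile was subtracted. A reversed sign was looked for only in the called spots among them, and 0 were found. Omission of an array could not reverse these, since all 6 arrays lay on the same side. Counts by the size rule, 15 higher and 14 lower, became 56 and 77 with the 10th percentile subtracted and 57 and 43 with no dim filter. Higher spots were 5 with a 25th percentile filter, 23 with the filter on the 1 h arrays only and 26 either without the sign rule or with the same sign asked of each orientation mean. At 2-fold 1 and 0 remained, and limma over the 6 arrays, which measures technical spread, called 5 and 7. Leaving out 1 replicate gave 16 to 30 higher and 14 to 25 lower spots. The largest moves were 30 without replicate 5, 26 without replicate 3 and 25 without replicate 6 for higher spots, and 25 without replicate 4 and 24 without replicate 5 for lower ones.

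Counts of 1 h against later times, 47 higher and 35 lower by limma, became 10 and 8 with the 10th percentile subtracted, 87 and 80 with the 25th percentile filter, 5 and 4 with median centring and 5 and 5 with scaling to the same spread. One loess curve per array gave 27 higher spots and the deposited ratios 53 lower ones. With no dim filter limma called 0 and 0, with 1482 and 1415 at an unadjusted p of 0.05, and without 3 h 0 and 0, with 1028 and 966. Without 6 h it called 13 and 13, and without 12 h 100 and 72. Leaving out 1 replicate of 1 h gave 83 to 137 higher and 66 to 115 lower spots. The replicate numbers name arrays of the same dye and do not pair extracts. A fit over 30 arrays as if independent called 449 and 554 spots with the replicate number as a block and 530 and 632 with no replicate block. On the deposited ratios, the median of other immediate early genes was 0.09 instead of -0.03, and 7 instead of 4 calls of 1 h passed in the same direction later. With no dim filter, an alternative chosen after seeing the data, higher members were 2 instead of 0 of the MAP kinase feedback list, 3 instead of 1 of the cyclic AMP and CREB targets, 2 instead of 1 of both the corticotrope and the motor lists, and 1 instead of 0 of both the ribosomal and the other immediate early lists. Lower fibroblast members were 1 instead of 0. The cause of these moves was not tested.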

Other observations

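Some early and signalling genes outside the rule for named genes, chosen after their values were seen, had all 6 arrays of 1 h on one side at a smaller size. Ier3, an early gene that feeds back on MAP kinases, had 0.28 ± 0.13, and Gna11, a G protein subunit, and Pde1b, a phosphodiesterase, had 0.33 and 0.29. In the cyclic AMP and G protein list, 4 of 66 spots (6.06%) were higher on all 6 arrays and as many were lower, among the latter Gnas, the Gs subunit, at -0.17 and Calm2, a calmodulin, at -0.34, while other spots of both genes reached 0.31 and 0.16. Nras, a small GTPase, had -0.29. Actb, the cytoplasmic actin that often serves as a reference, was at -0.36 and -0.25 on the spots with all arrays below 0, and at 0.06 on another. Over all genes, 2.94% of spots were above 0 and 3.4% below 0 on all 6 arrays.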
